A study of Mus musculus with 12 samples.

Results

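The comparison described here set RAW 264.7 cells that had received inulin and TsSP together before lipopolysaccharide (LPS) against the same cells with LPS alone. Its members were all 19505 genes that had a symbol in the array's annotation, with 1 probe set for each gene, over the 6 arrays titled for these groups out of 12 in the series. RAW 264.7 is a mouse macrophage-like line grown in culture. The LPS group received LPS at 500 ng/mL and nothing else. The Inulin+TsSP group received inulin, a plant fructan eaten as dietary fibre, at 500 µg/mL, and TsSP at 50 µg/mL, with LPS at the same 500 ng/mL. The series' design text speaks of helminth products, and TsSP is written here as the labels write it. Each group had 3 arrays, and incubation lasted 6 hours (37 °C, 5% CO2). The remaining 6 arrays, 3 with TsSP and LPS and 3 with inulin and LPS, entered the same statistical model and are used below to show where the combination differed from its parts. Every group carried LPS, so each difference is one within LPS-stimulated cells. The labels do not state whether the 3 arrays of each group were separate cultures. If they were not, the spread behind every p-value here is technical, and in any case it is the spread of these samples alone.

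LPS, a component of the outer membrane of Gram-negative bacteria, is sensed by macrophages through Toll-like receptor 4 with its partners CD14 and MD-2. The receptor starts a MyD88-dependent arm, which releases NF-kB and switches on cytokine and chemokine genes, and a TRIF-dependent arm, which induces interferon beta and, through the interferon receptor, a second wave of interferon-stimulated genes. Feedback from interleukin-10, A20 and the SOCS proteins limits both arms, while the cells turn to glycolysis under the transcription factor HIF-1.

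Values are log2 signals, so a difference of 1 is a 2-fold change. Among the 12 arrays, LPS replicate 1 stood apart on the second principal component, which held 7.4% of the variance, and the first component, with 48.2%, set the 6 arrays that had TsSP against the other 6. The median signal of the exon control probe sets was 11.22 to 11.34 on the Inulin+TsSP arrays and 11.00 to 11.18 on the LPS arrays, and the part of this shift in the results was not tested. Across genes, arrays correlated at r = 0.993 to 0.994 within the LPS group, 0.994 to 0.995 within the combination and 0.985 to 0.987 between them, and genes are not independent replicates. The macrophage label was borne by its markers: 23 of 25 measured markers lay above background in at least 1 of the groups, among them Csf1r at 15.63 ± 0.074 with LPS and 15.72 ± 0.074 with the combination (mean ± SD, n = 3). The summed signal of the macrophage list ran from 20.09 to 20.16 on the LPS arrays and from 20.28 to 20.33 on the combination arrays. Of the lymphocyte markers 0 of 18 were above background, of the neutrophil and mast cell markers 1 of 19 (Csf3r), of the fibroblast and epithelial markers 2 of 19 and of the dendritic cell markers 3 of 14. In such bulk samples, fewer cells of a type and less RNA per cell cannot be told apart.

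With inulin and TsSP, 3433 of 19505 genes (17.6%) differed from LPS alone at an adjusted p under 0.05 (limma, Benjamini and Hochberg over all genes, two-sided). Of these, 2010 genes (10.3%) were higher and 1423 (7.30%) were lower, a share of higher calls of 58.5% that became 50.7% when each array was centred on its median and 48.9% under quantile normalization. The median difference over all genes was 0.023. Both groups lay above background for 2823 of the called genes, and among those 791 changed by more than 2-fold, 431 upwards and 360 downwards. Beyond 4-fold the balance turned, with 57 genes higher and 76 lower. The 3 arrays of each group did not overlap in 3410 of the 3433 called genes. With 3 arrays against 3, such a gap is close to built into a call. Some uncalled genes, such as S100a10, showed it too, and its share over all genes was not counted.

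**Figure D1:**
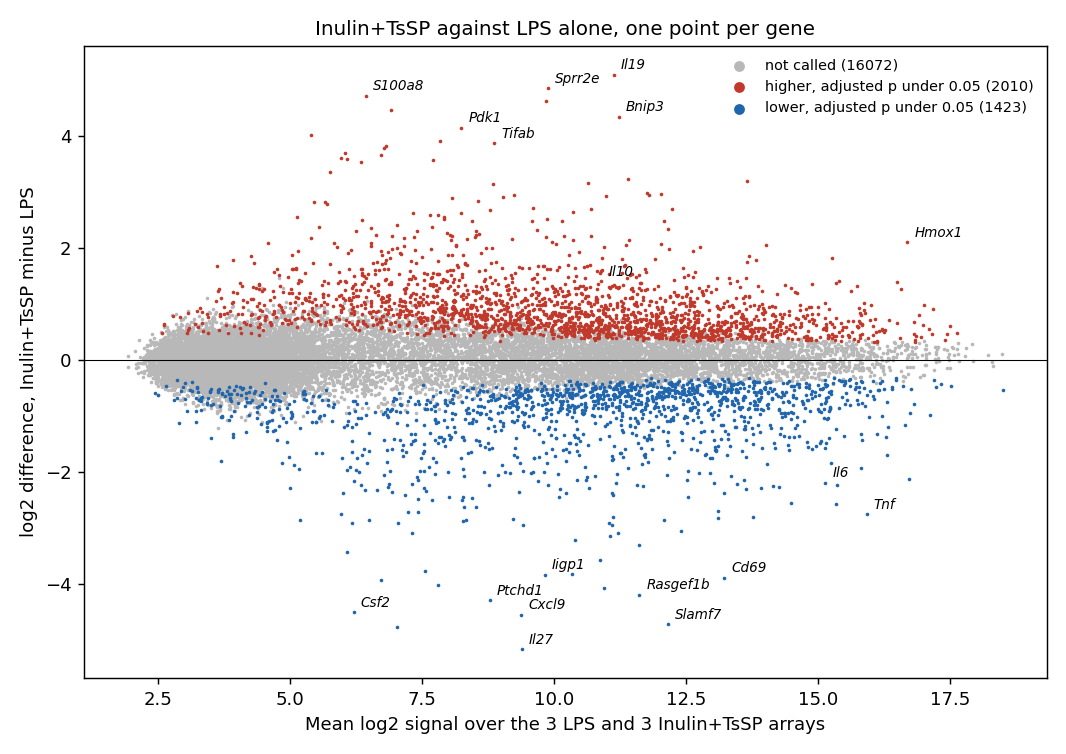
Each point is a gene, with its mean log2 signal over the 6 arrays on the x axis and the log2 difference, Inulin+TsSP minus LPS, on the y axis; red points are the 2010 genes called higher, blue points the 1423 called lower and grey points the rest. The falls of Il27, Slamf7 and Cxcl9 and the rises of Il19, Sprr2e and Bnip3 lie beyond 4 on the log2 scale, and differences of genes below about 6.3, the brightest background level, are not measured in at least 1 group.

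The 15 largest rises and 15 largest falls were ranked by fitted difference, without predicted genes and genes known only by a clone name, small RNA genes or chemosensory receptors. That left out C130050O18Rik (at least 5.41-fold higher) and Gm4841 (at least 9.07-fold lower), whose fitted differences of 3.78 and -3.77 would have placed them among these genes. The largest rise belonged to Il19, which encodes a cytokine of the interleukin-10 family (transcript cluster TC0100003050.mm.2). Its log2 signals were 8.47, 8.53 and 8.78 on the LPS arrays and 13.74, 13.62 and 13.67 on the combination arrays, a rise of 33.9-fold (log2 SE 0.18, adjusted p = 1.87e-08). The groups were separated by almost 5 log2 units with little spread inside either. Bnip3, whose product marks mitochondria for removal when oxygen is low, gave 8.81, 9.36 and 9.02 with LPS and 13.34, 13.40 and 13.46 with the combination, 20.2-fold higher (log2 SE 0.14, adjusted p = 1.45e-08). Tifab, a relative of the NF-kB adaptor gene Tifa, rose 14.5-fold, from 6.86, 6.57 and 7.38 to 10.93, 10.41 and 11.05. In both genes every combination array lay above every LPS array.

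Several of these 15 rises started from below the background probes and can only be bounded, so that their place in the ranking, by fitted difference, is not measured. Pdk1 encodes the kinase that closes the entry of pyruvate into mitochondria, and it was above background on 2 of the 3 LPS arrays and at least 14.1-fold higher with the combination. Rab3il1, a gene for an activator of Rab GTPases, was at least 11.7-fold higher. S100a8, which encodes a subunit of the inflammatory protein calprotectin, gave 4.99, 3.48 and 3.77 with LPS, all under background, and 9.03, 8.19 and 9.15 with the combination, at least 5.86-fold higher, whereas its partner S100a9 was below background in both groups. The remaining bounds were 5.62-fold for the tetraspanin-like gene Tm4sf1, 4.99-fold for the ubiquitin ligase gene Rnf183, 3.15-fold for Ppp1r3b, which steers a phosphatase to glycogen, 3.09-fold for the P-selectin gene Selp, 2.88-fold for Pdzk1ip1 and 2.25-fold for the adhesion scaffold gene Bcar1. The cornified-envelope genes Sprr2e and Sprr2d rose 28.7-fold and 24.5-fold and Sprr2f at least 7.46-fold; these genes have near-identical copies whose probes may read each other.

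Il27 headed the falls. It encodes a subunit of interleukin-27, a cytokine that macrophages and dendritic cells send to T cells, and its signals went from 12.00, 11.94 and 11.99 to 6.92, 6.91 and 6.61, a fall of 35.9-fold (log2 SE 0.14, adjusted p = 7.45e-09). The combination arrays sat just above the background level for this gene. Slamf7, a leukocyte surface receptor gene, dropped from 14.41, 14.71 and 14.42 to 9.74, 10.06 and 9.61 (26.2-fold, log2 SE 0.15), and the interferon-gamma-inducible chemokine gene Cxcl9 from 11.67, 11.70 and 11.59 to 7.06, 7.33 and 6.95 (23.3-fold, log2 SE 0.17). No array of the one group reached the range of the other in these 3 genes. Ptchd1 fell 19.6-fold, the Ras exchange factor gene Rasgef1b 18.2-fold, the early activation marker Cd69 14.8-fold, and the G-protein regulators Rgs2 and Rgs1 14.2-fold and 11.8-fold. The interferon-inducible GTPase genes Tgtp2 and Iigp1 fell 16.7-fold and 14.2-fold, and the probes for Tgtp2 may also read a near-identical neighbour. Below background with the combination were the tryptophan-degrading enzyme gene Kynu, at least 11.8-fold lower, the 25-hydroxycholesterol synthase gene Ch25h, at least 8.92-fold lower, the chemokine gene Ccl20, at least 5.37-fold lower, and the growth factor gene Csf2, at least 4.61-fold lower. Cish, a member of the SOCS family of signalling inhibitors, was at least 2.91-fold lower.

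Among 12 genes that are commonly used to read macrophage activation, the combination lowered 8, raised 2 and left 2 without a call. Tnf gave 17.24, 17.36 and 17.29 with LPS and 14.43, 14.68 and 14.53 with the combination, 6.72-fold lower (log2 SE 0.12, adjusted p = 6.15e-08). Il1a was 6.44-fold, Il6 4.55-fold, Ccl2 3.25-fold and Nos2, the inducible nitric oxide synthase gene, 2.69-fold lower. Smaller falls were measured for Il1b, from 16.08, 15.87 and 16.07 to 15.09, 15.37 and 15.15 (1.74-fold, adjusted p = 0.00132), and for the cyclooxygenase gene Ptgs2 (1.73-fold, adjusted p = 0.000223). The combination therefore lowered the 2 members of the interleukin-1 pair by different amounts, and the difference between them was not tested. Il10 moved the other way, from 10.06, 10.35 and 10.18 to 11.52, 11.78 and 11.50, a rise of 2.65-fold (log2 SE 0.13, adjusted p = 1.29e-05), and the haem oxygenase gene Hmox1 rose 4.29-fold. For Ifnb1, which encodes interferon beta, the test gave a lower call (adjusted p = 0.03), but both groups were below background and no fold is given, and its adjusted p became 0.0661 to 0.109 without LPS replicate 2, without LPS replicate 3, without Inulin+TsSP replicate 2 or without Inulin+TsSP replicate 3. Arg1 was also below background in both groups (difference -0.07, adjusted p = 0.897), and Cd14 differed by 0.07 (SE 0.10, adjusted p = 0.714).

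**Figure D2:**
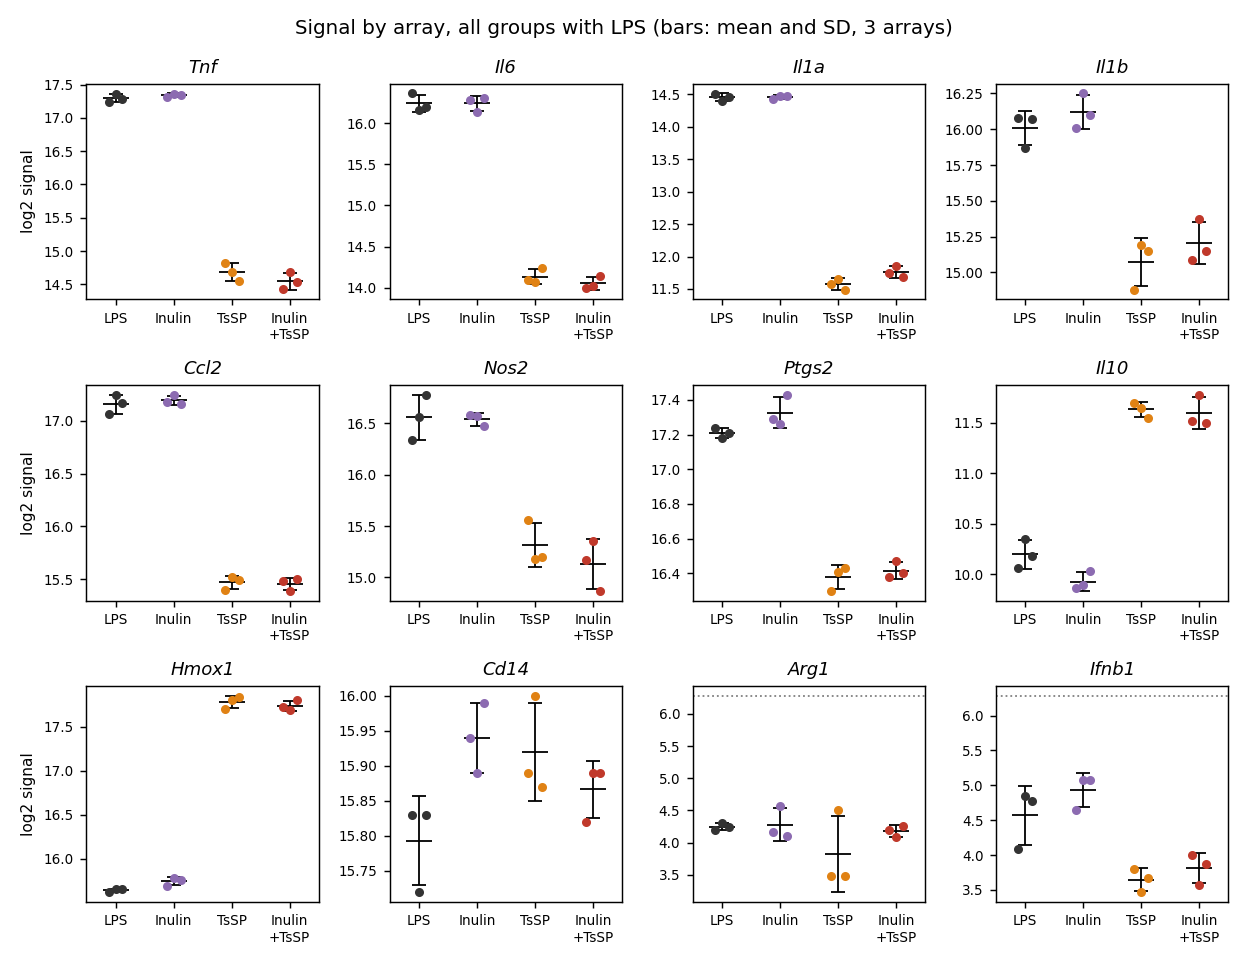
Log2 signal of 12 macrophage activation genes on each of the 12 arrays, with a panel for each gene; points are arrays, bars give the mean and SD of 3 arrays, all groups received LPS, and a dotted line marks the brightest background level where a gene lies near it. The combination arrays lie apart from the LPS arrays in Tnf, Il6, Il1a, Il1b, Ccl2, Nos2, Ptgs2, Il10 and Hmox1, and the groups overlap in Cd14 and Arg1.

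Most genes of the inflammatory cytokine list were lowered. The list leaves out Il19 and Il10, which rose and are counted with the interleukin-10 and STAT3 genes. Of 25 inflammatory cytokine genes measured, 19 were lower, 0 higher and 6 uncalled, with a median difference of -1.95, beside 7.30% of all genes called lower. The macrophage growth factor gene Csf1 went from 16.65, 16.70 and 16.56 to 14.02, 14.12 and 14.08 (5.93-fold, log2 SE 0.11, adjusted p = 6.15e-08). Genes of the TNF ligand family fell as well, Tnfsf15 by 7.51-fold and Tnfsf10, which encodes the death ligand TRAIL, by 7.00-fold. Osm, the gene of the interleukin-6-type cytokine oncostatin M, fell 4.08-fold. The interleukin-27 partner gene Ebi3 differed by -0.26 and was not called, so that only the Il27 subunit passed the test. The difference between the subunits was not tested.

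Of 24 chemokine genes, 16 were lower and 0 higher, with a median of -1.12. Cxcl10, whose product draws activated T cells, fell from 17.74, 17.73 and 17.88 to 15.65, 15.70 and 15.65 (4.34-fold, log2 SE 0.11, adjusted p = 1.58e-07). The monocyte chemokine gene Ccl7 fell 4.87-fold, while Ccl5 fell 1.37-fold. The 8 uncalled chemokine genes had differences of -0.48 to 0.53. One chemokine gene was called higher without LPS replicate 2 and 1 with the replicate number as a block.

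The kappa B site, the sequence that NF-kB binds, was searched for in RefSeq promoters (build GRCm38.p6, 250 bases before to 50 after each gene's start) as GGANTTTCC on both strands. It was found in 4 of the 14 lowered cytokine genes that have a promoter in the table and in 3 of the 10 lowered chemokine genes, beside 1.53% of all 15691 measured genes with a promoter. It was also found in 1 of 4 uncalled cytokine genes and 1 of 6 uncalled chemokine genes. A match describes the letters and is not evidence of binding. The stretches of Csf1 (chr3:107760600-107760638, minus strand) and Cxcl10 (chr5:92349024-92349062, minus strand) are shown because both genes were among the clearest falls; capitals mark the match, which starts 154 bases before the Csf1 start and 158 bases before the Cxcl10 start.
Csf1: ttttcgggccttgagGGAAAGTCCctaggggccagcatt
Cxcl10: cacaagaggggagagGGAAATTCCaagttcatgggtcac

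Cytokine and chemokine receptor genes did not follow their ligands. Of 30 measured, 17 were higher and 3 lower, with a median of 0.44, beside 10.3% of all genes called higher. The interleukin-6 receptor gene Il6ra gave 8.04, 8.06 and 8.64 with LPS and 10.59, 11.21 and 11.05 with the combination, a rise of 6.51-fold (log2 SE 0.22, adjusted p = 6.67e-06). Il4ra, which encodes the shared receptor chain for interleukin-4 and interleukin-13, rose 2.38-fold and the decoy interleukin-1 receptor gene Il1r2 at least 2.80-fold. The 3 lower genes were Il15ra (3.34-fold), Ccrl2 and Il10ra, with differences of -1.74, -1.48 and -0.57. This count depended on single arrays: 11 receptor genes were higher without Inulin+TsSP replicate 2 or without Inulin+TsSP replicate 3 and both scaling alternatives called 14 higher and 5 lower.

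Genes linked to interleukin-10 and STAT3 were mixed, with 10 of 26 higher and 3 lower. Besides Il19, S100a8 and Il10, Sbno2, which encodes a co-repressor induced by interleukin-10, rose 2.43-fold. Socs3, an inhibitor of interleukin-6 signalling, rose 1.45-fold, from 13.42, 13.52 and 13.58 to 13.90, 14.17 and 14.07 (adjusted p = 0.00608). The lowered genes were Arid5a, Pim1 and Junb, with differences of -2.0, -1.33 and -0.81. Arid5a stabilises inflammatory transcripts. Of the feedback regulators of inflammatory signalling, 6 of 34 were higher and 11 lower. Among genes above background, 20.5% were higher and 14.3% lower. The higher share of the feedback list and the lower share of the interleukin-10 and STAT3 list were below these. Socs1, the gene of an inhibitor of interferon signalling, fell from 9.65, 9.79 and 9.84 to 7.34, 6.93 and 6.43 (7.28-fold, log2 SE 0.24, adjusted p = 7.75e-06), and Zfp36l2, which encodes an mRNA-decay protein, rose 3.23-fold. The related decay gene Zfp36 fell by 0.83 on the log2 scale.

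In the NF-kB pathway, 17 of 32 genes were lower and 5 higher, with a median of -0.50. The subunit gene Rel fell 2.98-fold, the nuclear IkB gene Nfkbiz 2.87-fold, and Tnfaip3, which encodes the deubiquitinase A20, from 14.49, 14.52 and 14.52 to 12.99, 13.00 and 13.06 (2.81-fold, adjusted p = 3.06e-06). Icam1, the leukocyte adhesion ligand gene, fell 4.75-fold, and the survival gene Bcl2a1b 9.80-fold, although its probes may read the near-identical Bcl2a1a and Bcl2a1d. The 5 higher genes were Tifab, Map3k14 (2.84-fold), Bcl3, Ikbkg and Tifa. Map3k14 encodes the kinase of the non-canonical arm. Tifa lost its call without LPS replicate 1 (adjusted p = 0.0544), without LPS replicate 2 (0.0749) and without Inulin+TsSP replicate 1 (0.0623). Rela, which encodes the main activating subunit, differed by -0.41 and was not called.

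The interferon-stimulated genes were the list with the highest share of members lowered: 40 of 46 were lower, 1 was higher and 5 were not called, with a median of -0.75. All 46 lay above background. Ifit3b, one of the interferon-induced proteins that bind viral RNA, gave 16.45, 16.46 and 16.52 with LPS and 14.32, 14.15 and 14.27 with the combination (4.69-fold lower, log2 SE 0.10, adjusted p = 1.15e-07). Slfn5 fell 5.34-fold, the guanylate-binding protein gene Gbp4 4.82-fold and the transcription factor gene Irf1 from 14.17, 14.21 and 14.03 to 11.78, 12.02 and 12.01 (4.60-fold, adjusted p = 9.25e-07). The single member that rose was Irf8, a transcription factor of the monocyte lineage, from 10.01, 9.62 and 9.76 to 11.52, 11.28 and 11.60 (3.19-fold, adjusted p = 7.09e-06). Irf7 and Irf9 differed by -0.27 and -0.30 and were not called. The mean-variance trend and the test restricted to genes above background each called a second member higher.

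The core of the interferon-stimulated response element, searched as GAAANNGAA on both strands, was present in the promoters of 22 of the 29 lowered genes in the table (75.9%), in 1 of 5 uncalled members and in 9.28% of all measured genes with a promoter. The stretches of Slfn5 (chr11:82951932-82951993, plus strand) and Ifit3b (chr19:34607755-34607846, plus strand) are printed because they hold 2 and 3 matches, in capitals, the first of them 155 and 187 bases before the start.
Slfn5: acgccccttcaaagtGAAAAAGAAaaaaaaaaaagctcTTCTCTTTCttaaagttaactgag
Ifit3b: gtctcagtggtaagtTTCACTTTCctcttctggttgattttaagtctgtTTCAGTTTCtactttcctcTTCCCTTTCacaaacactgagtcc

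Antigen presentation and costimulation genes fell with them, 16 of 35 lower and 1 higher, at a median of -0.41. The costimulatory ligand gene Icosl fell 5.85-fold, from 15.85, 15.73 and 15.74 to 13.28, 13.40 and 12.99. The checkpoint ligand gene Cd274 (PD-L1) fell 2.94-fold and Cd40 2.62-fold. Of the peptide-loading genes, the immunoproteasome subunit genes Psmb10 and Psmb9 and the transporter genes Tap1 and Tap2 fell by 0.95, 0.69, 0.77 and 0.71 on the log2 scale. Cd80 was the member that rose, by 2.15-fold (10.43, 11.29 and 11.04 against 12.02, 12.10 and 11.97, adjusted p = 0.00464). The class II genes H2-Aa, H2-Ab1 and H2-Eb1 were below background in both groups.

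**Figure D3:**
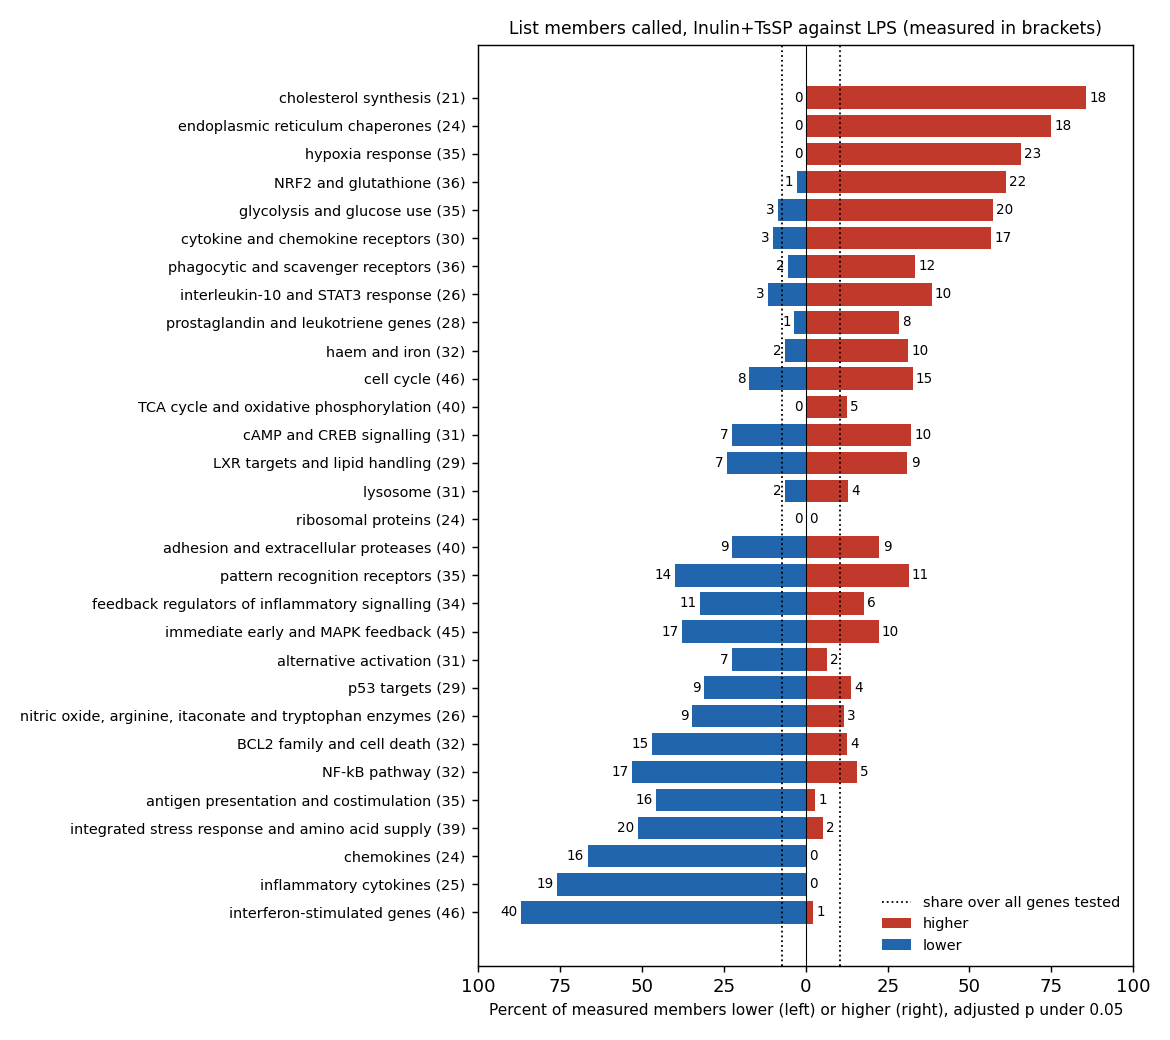
Share of the measured members of each of 30 gene lists called lower (blue, to the left) or higher (red, to the right) with Inulin+TsSP against LPS, in percent, with the number of called members at each bar and the number measured in brackets. Dotted lines mark the shares over all genes, 10.3% higher and 7.30% lower. The shares among genes above background, 20.5% and 14.3%, are not drawn. Cholesterol synthesis (18 of 21 higher) and interferon-stimulated genes (40 of 46 lower) stand at the ends, and ribosomal proteins have 0 calls.

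Genes of the response to low oxygen rose. This response is run by HIF-1, which prolyl hydroxylases destroy when oxygen is present. Of 35 genes measured, 23 were higher and 0 lower, with a median of 1.10; 1 was called lower without LPS replicate 2. Egln1, which encodes the main prolyl hydroxylase, gave 10.26, 10.76 and 10.66 with LPS and 13.54, 13.53 and 13.50 with the combination, 7.81-fold higher (log2 SE 0.14, adjusted p = 1.21e-07). The transcriptional repressor genes Bhlhe40 and Mxi1 rose 6.42-fold and 6.19-fold. Hif1a, the gene of the HIF-1 alpha subunit, rose from 14.80, 14.58 and 14.72 to 16.09, 16.11 and 16.10 (2.65-fold, adjusted p = 3.68e-06). Not every oxygen-responsive gene moved. Vegfa, the angiogenic factor gene, differed by -0.38 with a wide error (SE 0.67, adjusted p = 0.779), and Car9, Adm and Egln3 were below background in both groups.

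The core of the hypoxia response element, ACGTG or GCGTG on either strand, occurred in the promoters of 17 of 18 raised members in the table. It is a short motif, found in 54.1% of all measured genes with a promoter and in 69.3% of those above background, and 10 of 11 uncalled members held it too. Bnip3 (chr7:138909522-138909638, minus strand) and Pdk1 (chr2:71873131-71873165, plus strand) are shown as the 2 members with the largest rises. In Bnip3 the capitals mark 5 matches, of which the ones starting 108 and 107 bases before the start overlap as a palindrome, and in Pdk1, which has 2 promoters in the table, a match 78 bases before the start of the one shown.
Bnip3: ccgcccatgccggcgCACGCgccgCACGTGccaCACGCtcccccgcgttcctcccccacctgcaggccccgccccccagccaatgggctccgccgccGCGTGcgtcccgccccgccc
Pdk1: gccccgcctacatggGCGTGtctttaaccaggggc

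Glycolysis and glucose use followed, with 20 of 35 genes higher and 3 lower, at a median of 0.48. The glucose transporter gene Slc2a1 went from 15.92, 15.88 and 16.05 to 17.15, 17.24 and 17.26 (2.41-fold). Pfkl, which encodes the liver-type phosphofructokinase, rose 5.04-fold, the triosephosphate isomerase gene Tpi1 2.50-fold and the lactate dehydrogenase gene Ldha 2.01-fold. Genes that lead glucose into glycogen were 3 of the 4 members with the largest fitted differences. Ppp1r3b was bounded at 3.15-fold or more, so its place is not measured. The glycogen synthase gene Gys1 rose from 10.66, 11.09 and 10.82 to 13.37, 13.33 and 13.29 (5.55-fold), and the phosphoglucomutase gene Pgm1 4.40-fold. Other glycogen genes of the list, Gbe1, Pygl, Ppp1r3c and Ppp1r3d, and the related Pgm2 were not called. The lower members were Hk3 (1.65-fold), Pfkp and Slc2a6, with differences of -0.72, -0.44 and -0.37. Pfkp lost its call without Inulin+TsSP replicate 3 (adjusted p = 0.0501), and Slc2a6 lost it without Inulin+TsSP replicate 1 or 3 and without LPS replicate 1 or 3 (0.076 to 0.108).

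Mitochondrial genes of the citric acid cycle and oxidative phosphorylation showed little. Of 40, 5 were higher (12.5%) and 0 lower, and the median was 0.10. That share was near the 10.3% over all genes. It was below the 20.5% called higher among genes above background, where 39 of the 40 lay. The called members were Cox7a2, Ndufa4, Sdhd, Sdhc and Mdh2, with differences of 0.56, 0.52, 0.42, 0.39 and 0.37. The count was 2 without LPS replicate 3, without Inulin+TsSP replicate 2 or without Inulin+TsSP replicate 3, and 3 without LPS replicate 2, without Inulin+TsSP replicate 1 or with arrays centred on their medians.

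Cholesterol synthesis had the highest share of raised members: 18 of 21 genes were higher and 0 lower, with a median of 0.97. The pathway builds cholesterol from acetyl units under the transcription factor SREBP2. At its entry, Hmgcs1 went from 14.41, 14.72 and 14.49 to 15.50, 15.50 and 15.44 (1.92-fold, adjusted p = 0.000106). Further along, the mevalonate decarboxylase gene Mvd rose 3.46-fold, the squalene epoxidase gene Sqle from 12.77, 12.56 and 12.47 to 14.12, 14.05 and 13.99 (2.74-fold, adjusted p = 1.38e-05), and the lanosterol demethylase gene Cyp51 2.20-fold. Insig1, whose product holds SREBP in the endoplasmic reticulum, rose 2.44-fold. The uncalled members were Srebf2 itself, Scap and Ggps1, with differences of 0.29, -0.08 and -0.22. The sterol regulatory element, searched as TCACNCCAC on both strands, was in 1 of the 14 raised members with a promoter in the table, Hmgcs1, and in 1.43% of all measured genes with a promoter.

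LXR targets and lipid-handling genes moved both ways, 9 of 29 higher and 7 lower, beside 20.5% and 14.3% among genes above background. LXR is the nuclear receptor that senses oxysterols and drives cholesterol export. The export pump gene Abca1 gave 9.96, 10.18 and 10.86 with LPS and 13.36, 13.17 and 13.26 with the combination, 7.63-fold higher (log2 SE 0.20, adjusted p = 1.51e-06). The companion pump gene Abcg1 went down from 12.13, 12.04 and 12.11 to 10.22, 10.44 and 10.64 (3.16-fold), and Mylip, which encodes a ligase for the LDL receptor, fell 3.12-fold. These 3 genes are often listed together as LXR targets, and here they parted in direction. The fatty acid desaturase genes Fads1 and Fads2 rose by 1.29 and 0.90 on the log2 scale.

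NRF2 and glutathione genes rose in 22 of 36 cases, with 1 lower and a median of 0.63. NRF2 is the transcription factor of the response to oxidants, held back by KEAP1. Gclm, which encodes the modifier subunit of the enzyme that starts glutathione synthesis, gave 15.65, 15.94 and 15.81 with LPS and 17.27, 17.12 and 17.17 with the combination, 2.63-fold higher (log2 SE 0.12, adjusted p = 8.7e-06). The growth inhibitor gene Osgin1 rose 4.48-fold, the membrane glutathione transferase gene Mgst1 3.22-fold and the export pump gene Abcc4 3.10-fold. Keap1 was the lower member, from 13.51, 13.52 and 13.56 to 12.86, 12.88 and 12.88 (1.58-fold, adjusted p = 0.000744). Nfe2l2, the NRF2 gene, differed by -0.09 and was not called.

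The antioxidant response element core, TGACNNNGC on either strand, was in the promoters of 9 of 19 raised members in the table (47.4%), of 4 of 12 uncalled members and of 15% of all measured genes with a promoter. Mgst1 (chr6:138140456-138140494, plus strand) and Gclm (chr3:122245408-122245446, plus strand) are shown as the 2 members with the smallest p-values in the list. The match is in capitals, on the opposite strand in both, 56 and 134 bases before the start.
Mgst1: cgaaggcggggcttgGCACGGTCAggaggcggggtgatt
Gclm: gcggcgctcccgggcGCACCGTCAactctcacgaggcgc

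Haem and iron genes were higher in 10 of 32 cases and lower in 2, beside 20.5% higher and 14.3% lower among genes above background. After Hmox1, the largest rise was that of Slc48a1, the haem transporter of the phagolysosome, from 14.36, 14.27 and 14.41 to 16.03, 16.16 and 16.34 (3.54-fold, adjusted p = 2e-06). The metal transporter genes Slc39a14 and Slc11a1 rose 2.93-fold and 1.96-fold. The iron exporter gene Slc40a1 (ferroportin) fell 1.57-fold, from 11.20, 11.33 and 11.29 to 10.46, 10.76 and 10.66, and Cpox fell by 0.63 on the log2 scale. The ferritin genes Fth1 and Ftl1 differed by 0.08 and 0.18 and were not called.

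The integrated stress response, in which ATF4 switches on amino acid supply and repair genes, went down: 20 of 39 genes were lower and 2 higher, with a median of -0.42. Chac1, which encodes a glutathione-degrading enzyme, fell from 11.42, 11.48 and 11.36 to 8.93, 9.13 and 9.07 (5.19-fold, log2 SE 0.15, adjusted p = 7.95e-07). Sesn2, an inhibitor of the growth kinase mTORC1, fell 4.92-fold, the neutral amino acid transporter gene Slc1a4 3.37-fold and the CHOP gene Ddit3 2.54-fold. The 2 higher members were Eif2ak3 (2.26-fold), the gene of the stress kinase PERK, and the cystine transporter gene Slc7a11. Atf4 differed by -0.33 and was not called. A fit on the 6 arrays alone called 12 lower.

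Endoplasmic reticulum chaperones went the other way, with 18 of 24 higher and 0 lower, at a median of 0.57. Sdf2l1, the gene of a chaperone cofactor, gave 11.92, 11.89 and 11.88 with LPS and 13.29, 13.27 and 13.58 with the combination (2.79-fold, adjusted p = 6.13e-05). The secreted factor gene Creld2 rose 2.64-fold, the co-chaperone gene Dnajc3 2.45-fold and the protein disulfide isomerase gene P4hb 2.29-fold. Hspa5, which encodes the central chaperone BiP, was 17.80, 17.66 and 17.84 with LPS and 18.07, 18.07 and 18.03 with the combination. The groups did not overlap, but the difference of 0.29 did not pass the test (adjusted p = 0.0976). Xbp1 and Atf6, the genes of the transcription factors of this response, differed by 0.18 and 0.03 and were not called.

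**Figure D4:**
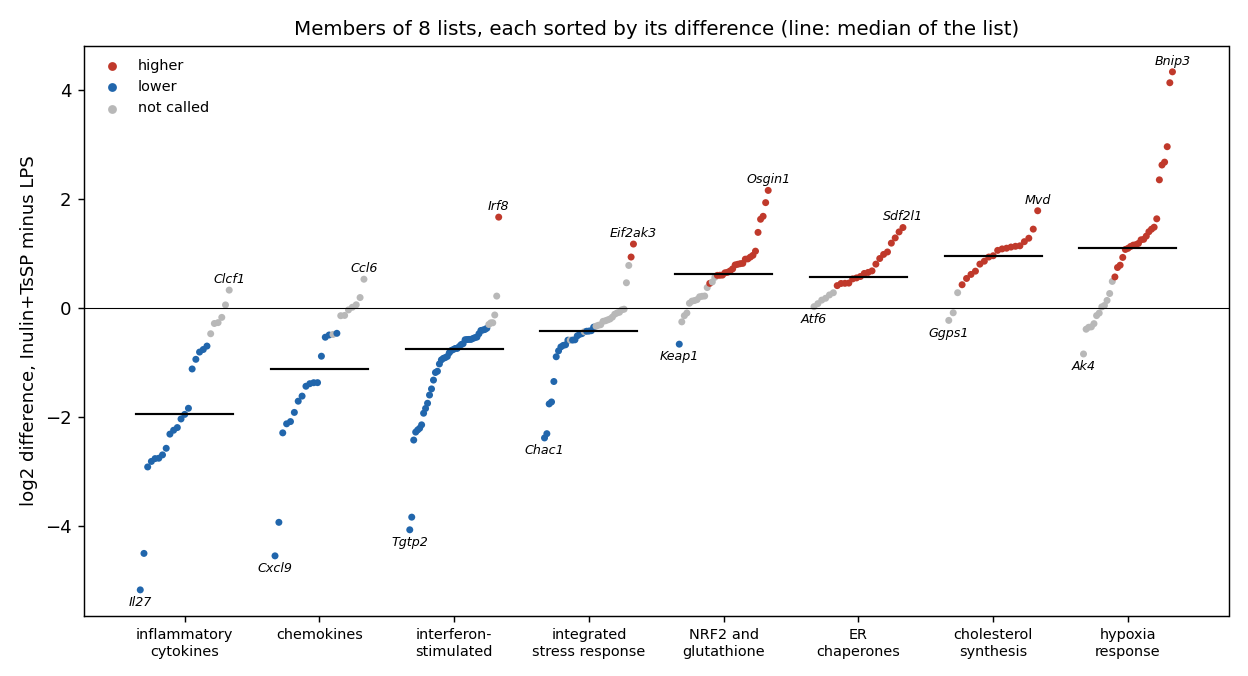
Log2 difference, Inulin+TsSP minus LPS, of each measured member of 8 lists, sorted within its list; red members were called higher, blue lower and grey were not called, the black line is the median of the list, and the members with the lowest and highest difference are named. The medians run from -1.95 in the inflammatory cytokines to 1.10 in the hypoxia response, and Irf8 and Keap1 lie on the other side of 0 from the called members of their lists.

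Pattern recognition receptor genes moved both ways. Of 35, 11 were higher and 14 lower, beside 20.5% and 14.3% among genes above background. The inflammasome sensor gene Nlrp3 fell from 14.96 ± 0.053 to 13.1 ± 0.19 (mean ± SD, n = 3; 3.63-fold, adjusted p = 1.07e-06 in limma), and Cd180, a relative of Tlr4, fell 2.23-fold. C-type lectin and TREM receptor genes supplied the largest rises: Clec4a2 rose 5.72-fold, Clec4n, which encodes the fungal sensor dectin-2, 3.19-fold and Trem1 from 11.51, 11.59 and 11.61 to 12.92, 12.94 and 13.11 (2.68-fold). The C-type lectin genes did not all rise: Clec4d was also called higher, but Clec5a and Clec2d were called lower and Clec4e was not called. Tlr4 differed by -0.16 and, like Cd14, was not called. The Tlr4 partner gene Ly96 (MD-2) rose by 0.58.

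Phagocytic and scavenger receptor genes were higher in 12 of 36 cases and lower in 2. The inhibitory receptor gene Pirb rose 3.09-fold and the lipoprotein receptor gene Scarb1 2.06-fold, from 11.38, 11.25 and 11.29 to 12.16, 12.45 and 12.45. The count of higher members was 7 without Inulin+TsSP replicate 1. The lower ones, Axl and Gas6, were below background in both groups; Gas6 lost its call without any single array except Inulin+TsSP replicate 1 (adjusted p = 0.0771 to 0.125). Among the lysosomal genes, 4 of 31 were higher (Ctsl, Tfe3, Atp6v0d1 and Gusb) and 2 lower (Mitf and Atp6v1b2). These shares were near the 10.3% and 7.30% of all genes. They were below the 20.5% and 14.3% of genes above background, where 29 of the 31 lay. Mitf and Tfe3 encode related transcription factors of lysosome genes, and Mitf fell 3.05-fold (13.45, 13.51 and 13.58 against 11.88, 11.88 and 11.95) while Tfe3 rose 1.43-fold. Atp6v0d1 lost its call without LPS replicate 2 (adjusted p = 0.0566) and without Inulin+TsSP replicate 3 (0.0708), and Gusb lost it without any single array except Inulin+TsSP replicate 1 (0.0523 to 0.113).

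Immediate early and MAPK feedback genes were lower in 17 of 45 cases and higher in 10, beside 14.3% lower and 20.5% higher among genes above background. Klf10, a transcription factor gene of the TGF-beta response, rose from 7.57, 7.5 and 7.70 to 10.37, 10.39 and 10.71 (7.46-fold, adjusted p = 4.12e-07), and Fos, an AP-1 subunit gene, rose 4.40-fold. The zinc-finger factor gene Egr1 fell 5.63-fold, from 9.2, 9.96 and 9.34 to 7.16, 6.42 and 7.44, and the MAPK phosphatase gene Dusp10 fell 2.98-fold. The number of higher members was 6 without Inulin+TsSP replicate 2. In cAMP and CREB signalling, 10 of 31 were higher and 7 lower, beside the same shares. The clock gene Per1, a CREB target, rose 2.41-fold and the CREB coactivator gene Crtc3 3.13-fold, whereas Creb5 fell 4.13-fold and the phosphodiesterase gene Pde4b 1.5-fold.

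Of the p53 targets, 9 of 29 were lower and 4 higher, beside 14.3% lower and 20.5% higher among genes above background. The kinase gene Plk2 fell from 14.57, 14.57 and 14.43 to 11.88, 11.77 and 11.46 (7.05-fold, adjusted p = 1.15e-07), the p53 ligase gene Mdm2 2.77-fold and the stress gene Gadd45a 3.48-fold. The 4 higher members were Ei24, Xpc, Sesn1 and Trp53inp1, of which Ei24 alone kept its call without Inulin+TsSP replicate 2 (the others at an adjusted p = 0.0663 to 0.0816) or without Inulin+TsSP replicate 3 (0.0602 to 0.108). Quantile normalization called 2 higher and 10 lower, with Xpc and Sesn1 losing their calls. Genes of the BCL2 family and cell death were lower in 15 of 32 cases and higher in 4. Bcl2 fell 2.27-fold, from 10.00, 10.06 and 10.26 to 8.96, 9.04 and 8.78. Ripk3, the gene of the kinase that starts necroptosis, rose 2.78-fold, and its substrate gene Mlkl fell by 0.52 on the log2 scale. The other higher members were Birc5, Bad and Casp9, and these 3 lost their calls without Inulin+TsSP replicate 2 (adjusted p = 0.055 to 0.0818). Without Inulin+TsSP replicate 3, 2 members were higher, and under quantile normalization also 2, with Bad and Casp9 losing their calls.

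Cell cycle genes were higher in 15 of 46 cases and lower in 8, with a median of 0.27. Among genes above background, 20.5% were higher and 14.3% lower. The D-type cyclin gene Ccnd3 rose from 12.73, 13.03 and 13.06 to 14.60, 14.85 and 14.73 (3.45-fold, adjusted p = 1.66e-06), and the ribonucleotide reductase gene Rrm2 and the kinase gene Cdk2 rose 2.90-fold and 2.21-fold. E2f2, a transcription factor of entry into DNA synthesis, was below background with LPS and at least 3.5-fold higher. Cdk6, the kinase partner of the D-type cyclins, fell 3.09-fold, and Ccnd2 by 0.90 on the log2 scale. The proliferation marker Mki67 differed by 0.13 and was not called.

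Prostaglandin and leukotriene genes other than Ptgs2 were higher or uncalled, 8 of 28 and 19 of 28, beside 20.5% higher among genes above background. Pla2g7, the gene of the platelet-activating factor hydrolase, rose 3.10-fold, and Alox5ap, which encodes the activator of 5-lipoxygenase, from 12.25, 12.36 and 12.21 to 13.56, 13.50 and 13.70 (2.49-fold, adjusted p = 1.31e-05). Ptgr1, whose product inactivates prostaglandins and leukotrienes, rose 2.55-fold. A second member was called lower without Inulin+TsSP replicate 1. Enzymes of nitric oxide, arginine, itaconate and tryptophan were lower in 9 of 26 cases and higher in 3, Odc1, Ncf4 and Asl. The shares among genes above background were 14.3% lower and 20.5% higher. Gch1, which makes the cofactor of nitric oxide synthase, fell 2.90-fold, from 14.19, 14.07 and 14.06 to 12.59, 12.66 and 12.45, and the polyamine enzyme gene Odc1 rose 1.96-fold. Asl lost its call without Inulin+TsSP replicate 2 (adjusted p = 0.0504).

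Adhesion and extracellular protease genes were called 9 higher and 9 lower of 40, beside 20.5% higher and 14.3% lower among genes above background. The integrin gene Itga4 fell 4.42-fold and the aggrecanase gene Adamts4 7.18-fold, and the membrane protease gene Adam8 rose from 14.96, 14.99 and 15.10 to 16.10, 16.32 and 16.31 (2.34-fold). Of 31 genes of alternative activation, the state driven by interleukin-4, 2 were higher, Il4ra and Stat6 (1.65-fold), and 7 were lower, among them the chemokine genes Ccl17, at least 1.79-fold, and Ccl22. The classical markers Arg1, Mrc1, Chil3 and Retnla were below background in both groups. Ribosomal protein genes had 0 of 24 called in limma, with differences of -0.03 to 0.27; the mean-variance trend called 4 of them higher.

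Among the macrophage markers, 7 of 25 were higher and 4 lower, beside 20.5% higher and 14.3% lower among genes above background. Adgre1, the gene of a surface antigen of mature macrophages, fell from 13.91, 14.16 and 14.06 to 12.77, 12.57 and 13.23 (2.28-fold, adjusted p = 0.0006), and the others lower were Aif1, Runx1 and Maf. Maf lost its call without LPS replicate 2, LPS replicate 3 or Inulin+TsSP replicate 3 (adjusted p = 0.0509 to 0.0594) and Runx1 without LPS replicate 3 or Inulin+TsSP replicate 3 (0.0589 and 0.064). The lineage factor gene Spi1 differed by 0.22 and was not called. Centred arrays and quantile normalization each called 4 macrophage markers higher in place of 7. RAW 264.7 cells can form osteoclasts. Of 14 osteoclast markers, 7 lay above background in at least 1 of the groups and 12 were not called. Dcstamp, the gene of a fusion protein, was at least 1.59-fold higher and Clcn7 fell 2.74-fold. The called share of 14.3% was below the 17.6% of all genes.

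Some genes were visible in only one of the groups. On all 3 combination arrays and on no LPS array, 100 genes lay above background. Besides those named above, they included Lpin1, the gene of a phosphatidate phosphatase, at least 3.99-fold higher, and the oxysterol-guided receptor gene Gpr183, at least 3.49-fold higher. Conversely, 47 genes lay above background on the LPS arrays alone. This choice fixes the direction of the differences, so calls among these genes are not counted. Zfp811 was at least 6.06-fold, the fatty acid binding protein gene Fabp3 at least 3.31-fold and the Notch ligand gene Dll1 at least 2.62-fold lower.

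The combination differed from inulin with LPS in 3248 genes (16.7% of 19505), 1689 higher and 1559 lower, when TsSP was what had been added. It differed from TsSP with LPS in 0 genes (0%) at an adjusted p under 0.05 in limma, when inulin was what had been added; the lowest adjusted p was 0.876, and 971 genes had an unadjusted p under 0.05 (984 with the mean-variance trend). The interaction, which asks whether the joint change departs from the sum of the separate changes, also gave 0 genes (0%), with a lowest adjusted p of 0.646 and 1089 genes at an unadjusted p under 0.05 (957 with the trend). A p that misses the threshold does not show that the groups were alike, so the intervals matter. Among the 2823 genes called against LPS and measured in both groups, the 95% interval of combination minus TsSP lay inside 2-fold for 2792, and reached a median of 0.30 on the log2 scale to either side. Over the genes above background, the interval of the interaction reached a median of 0.46 to either side.

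For single genes the values stood side by side as follows, all comparisons with LPS sharing the same 3 LPS arrays. Il19 differed from LPS by 5.08 with the combination, by 5.08 with TsSP and by -0.35 with inulin, and combination minus TsSP was 0.01 (95% interval -0.39 to 0.41). Tnf differed by -2.75, -2.61 and 0.04, and combination minus TsSP was -0.14 (-0.40 to 0.11). For Il10 the values were 1.41, 1.44 and -0.27 (combination minus TsSP -0.03, -0.31 to 0.24), and for Bnip3 4.34, 4.20 and 0.19 (0.14, -0.18 to 0.45). In these 4 genes the interval held 0. The widest gap between combination and TsSP among the called and measured genes was that of Socs1, at -2.86, -1.80 and -0.39, with combination minus TsSP at -1.07 (-1.59 to -0.54); the adjusted p was 0.876. Of the 30 genes ranked above as the largest rises and falls, the unadjusted interval left out 0 in 3. These were Sprr2f (0.84, 0.38 to 1.31), Selp (0.87, 0.24 to 1.5) and Rgs2 (-0.55, -1.0 to -0.09), and none of them passed the adjusted test. The ranking used the same 3 combination arrays, so their random deviations enter both differences and favour gaps in these directions.

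**Figure D5:**
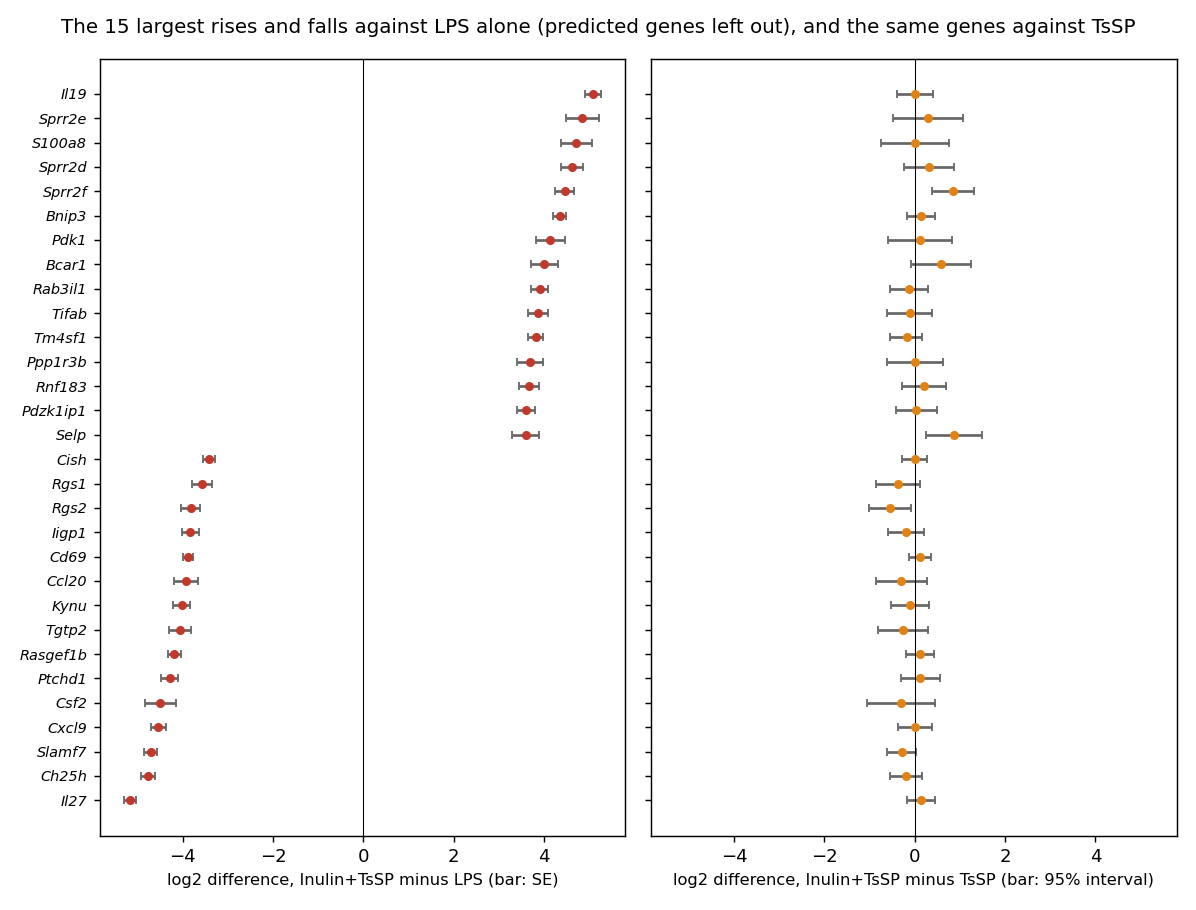
The 15 largest rises and 15 largest falls against LPS alone, predicted, clone-named, small RNA and chemosensory receptor genes left out, with the log2 difference Inulin+TsSP minus LPS and its SE on the left and the difference Inulin+TsSP minus TsSP with its 95% interval, not adjusted for the number of genes, on the right, on the same scale. Differences against LPS reach from -5.16 to 5.08, while those against TsSP lie between -0.55 and 0.87, and the left values of genes below background in the dimmer group are fitted differences and not bounds.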

How the data were processed

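RNA of 12 RAW 264.7 samples, 3 in each of 4 groups, was read on 1-colour expression arrays. The deposited log2 values of the authors' series table were used as they stand; how the authors summarised and normalized the probes is not given in the sources used here, and log base 2 was inferred from the values. Probe sets were named through the platform annotation, and for each symbol the probe set with the highest mean over the 12 arrays was kept. A gene counted as above background when it exceeded the brightest background probe set of that array. Where the dimmer group was below background, "at least" folds set the brighter mean against, per array, the higher of that level and the gene's own signal.

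One limma model (limma 3.58.1, R 4.3.3) with 4 group means was fitted to all 19505 genes, with Benjamini-Hochberg adjustment over all of them and a threshold of 0.05. The procedure was tested on simulated data. A naming rule took the 15 largest rises and falls by fitted difference, 12 activation genes, the 4 members with the lowest p in every list and every member of counts of 5 or fewer. For the rises and falls, groups did not overlap and the brighter lay above background on all 3 arrays. Predicted and clone-named genes, small RNA genes and chemosensory receptors were left out of them. Not every list member taken by the rule is printed above. Other genes, among them uncalled pathway genes, those visible in one group alone and the gene families of the closing section, were chosen after their values were seen. The members and lists were chosen with earlier results of these data known. Alternatives were quantile normalization, median centring, genes above background alone, a mean-variance trend, the 6 arrays alone, the mean of a gene's probe sets, the replicate number as a block and each array left out. Promoters are RefSeq's (GRCm38.p6). The number of arrays limits the precision.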

Additional observations from a re-analysis of the deposited data

Results flagged for a closer look

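Transcript clusters to which the annotation gives no gene symbol lay outside the comparisons above. When they were tested together with the named genes in limma, 299 of 2634 (11.4%) differed between the combination and LPS alone at an adjusted p under 0.05. Of these, 181 were higher and 118 lower. The share was below the 17.6% of named genes called in the main fit. Among the 884 clusters above background on all arrays of a group, 28.8% were called. That share was also below that of named genes: of 8861 above background, 20.5% were called higher and 14.3% lower in the main fit. The cluster TC1900000646.mm.2 was 16.5-fold higher and TC1100002643.mm.2 was 12.4-fold lower. What these clusters encode was not tested.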

How the results depend on the processing

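The count of 3433 called genes stayed within 1.5 times under every alternative run. It was 3338 under quantile normalization and 3093 with the replicate number as a block (1787 higher, 1306 lower). The labels do not say whether the replicate numbers pair the samples. Deviations of same-numbered LPS and combination arrays from their group means correlated at r = -0.052 to -0.029. No shared replicate effect was visible in these values, which cannot show how the cultures were handled. With each array left out in turn, 2629 to 3010 genes were called, 1515 to 1736 genes were higher and 1114 to 1412 lower. No called gene changed direction under any alternative. Of 172 called genes among the 191 taken by the naming rule, printed above or not, 148 kept their call in every setting, and 23 lost it with 1 array left out. Counts of list members moved by over 1.5 times in 60 of 780 alternatives. Differences of genes near background are not measured, and in 350 called genes neither group was above background on all of its arrays.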

Other observations

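Some gene families that the lists do not cover as families were picked after their values were seen, so they have no test. Beside them, 20.5% of the 8861 genes above background in at least 1 of the groups were called higher and 14.3% lower. Of 50 replication-dependent histone genes above background, 37 were called higher, 1 (H1f2) lower and 12 not called, with a median difference of 0.64; many are near-identical copies whose probes may read each other. Without LPS replicate 1 the counts were 35 higher and 0 lower. All 8 Sprr2 genes above background were higher, at a median of 3.55, and 3 of them are among the largest rises given above. Of the Schlafen genes, 7 of 8 were lower at a median of -1.10, including Slfn2 and Slfn5, which the interferon-stimulated list already counts; 6 were lower without LPS replicate 1. Of the terminal nucleotidyltransferase (Tent) genes 5 of 6 were lower and 1, Tent4b, higher, a call lost without LPS replicate 1. Of the tubulin genes, 4 of 5 beta members and 4 of 5 alpha members were called higher, the latter 3 of 5 under quantile normalization, with median centring and without LPS replicate 1.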
